A study of Homo sapiens with 12 samples.

Results

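The data concern 10 of the 36866 genes measured in THP-1 and U-937 leukemia cells treated with honokiol: the ceramide synthases CERS1, CERS2, CERS4, CERS5 and CERS6, the neighbouring enzymes SPTLC1, SPTLC2, DEGS1 and UGCG, and GDF1, a gene whose exons all lie inside those of CERS1. GDF1 and CERS1 were chosen on their values in honokiol-treated and DMSO-treated THP-1 cells, so their values in that contrast, and in every contrast that uses those libraries, are given as a description with no test. The other 8 genes were chosen by their role in ceramide synthesis. THP-1 and U-937 are established human lines labelled as acute myeloid leukemia (AML) with a complex karyotype, and honokiol is a plant-derived biphenol. Poly(A) RNA was sequenced in 12 libraries after 24 h of treatment. The 4 groups were THP-1 cells with 0.1% DMSO, THP-1 cells with honokiol, U-937 cells with 0.1% DMSO and U-937 cells with honokiol, with 3 libraries in each. The labels list 20 and 35 μM honokiol without saying which line received which dose, so the line and the dose cannot be told apart. Each group stands for 1 cell line.

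Ceramide is the central lipid of the sphingolipid pathway. Its de novo synthesis starts with serine palmitoyltransferase, passes through a family of ceramide synthases that each attach fatty acids of preferred chain lengths to the sphingoid base, and ends with a desaturase. Ceramide can then be turned into sphingomyelin or glycosphingolipids, or be broken down to sphingosine, and it is known for its part in growth arrest and cell death, in leukemia cells too.

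The GDF1-CERS1 locus lies on the minus strand of chromosome 19 (GRCh38), from 18868545 to 18896727 for CERS1 and from 18868545 to 18896158 for GDF1. GDF1 has 1 transcript in the GENCODE 29 annotation, ENST00000247005.7, with 8 exons and 2517 bases. Its exons and its sequence are identical to those of ENST00000623882.3, which the annotation lists under CERS1. The same RNA thus carries an upstream frame of 350 codons for CERS1, from base 25 to base 1077 of the transcript, and a downstream frame of 372 codons for GDF1, from base 1347 to base 2465. Another transcript, ENST00000623927.1, is listed under CERS1 but carries the GDF1 frame. The other 3 transcripts of CERS1 end upstream of the GDF1 frame, and ENST00000429504.6, with 6 exons and 2094 bases, is the longest of them. All 2517 exonic bases of GDF1 lie in CERS1 exons, and 1236 of the 3753 exonic bases of CERS1, or 32.9%, lie outside GDF1. The starts of both frames are shown because they mark what separates the 2 genes on a shared RNA, and the end of the CERS1 frame is shown for that RNA and for ENST00000429504.6, the shorter transcript, because the frame ends differently there. Each line gives 30 bases 5′ to 3′, and capitals mark the start or stop codon.
CERS1 frame, start: ATGgcggcggcggggcccgcggcggggccg
CERS1 frame, end in the long transcript: aacggcctggtgaaggacaagcgcttcTGA
CERS1 frame, end in the shorter transcript: cagagcctgaagcccagcaaagccgagTGA
GDF1 frame, start: ATGccaccgccgcagcaaggtccctgcggc

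**Figure D1:**
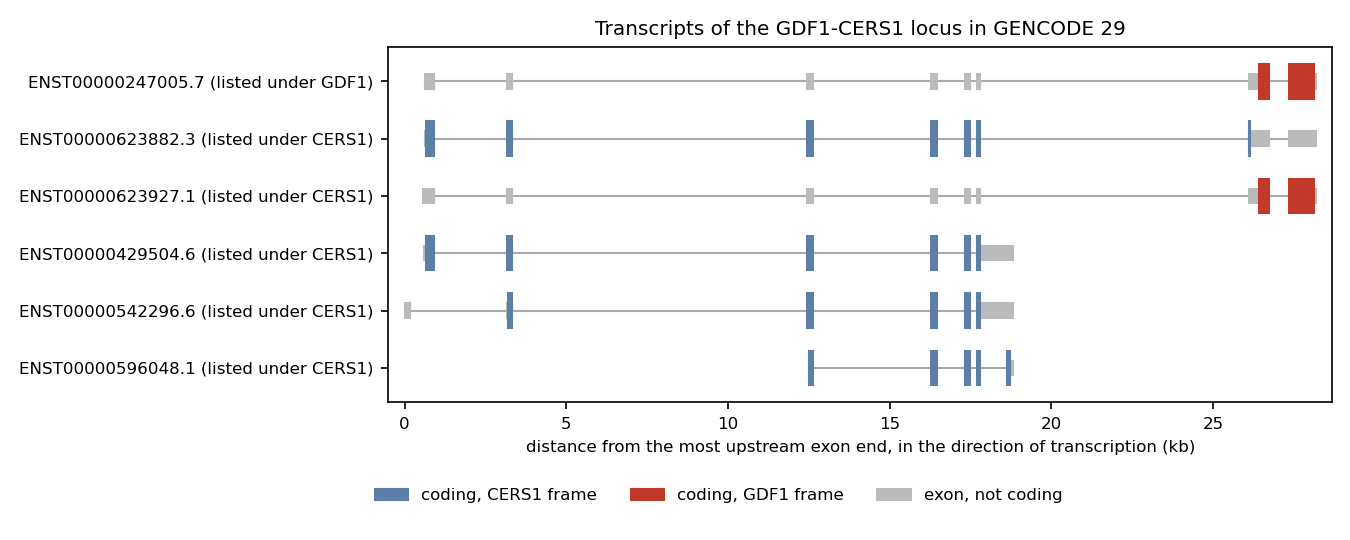
The 6 transcripts of the locus drawn to scale, with the distance in kb along the direction of transcription on the horizontal axis and 1 transcript a row. Tall blocks are coding exons (blue for the CERS1 frame, red for the GDF1 frame) and low grey blocks are non-coding exon parts. The first 2 rows have the same exons and differ only in the frame that is marked as coding.

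RefSeq (GRCh38.p14) gives GDF1 and CERS1 the same promoter window, and a second window to CERS1 alone. Of the 10 members 8 had a window in the RefSeq promoter table. The shared 250 bases before the start site, on the minus strand, are printed because both genes are read from them. Capitals mark the GC box, searched as GGGCGG on both strands.
GDF1 and CERS1, chr19:18896159-18896408: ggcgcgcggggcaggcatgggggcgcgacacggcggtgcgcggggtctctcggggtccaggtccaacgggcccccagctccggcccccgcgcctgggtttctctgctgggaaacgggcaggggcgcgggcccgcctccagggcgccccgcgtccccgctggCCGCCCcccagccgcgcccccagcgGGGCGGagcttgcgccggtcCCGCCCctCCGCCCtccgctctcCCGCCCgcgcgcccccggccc
The window was 83.6% G and C and held 5 GC boxes, a motif present in 42.5% of the 34943 windows of this length. It held neither TATAAA, which 10.8% of the windows contain on either strand, nor CCAAT, which 32.0% contain. These are matches of letters, and no factor binding was measured.

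In DMSO-treated THP-1 cells the reads of the locus were counted almost entirely for CERS1, a synthase known mainly from brain and muscle. CERS1 had 1733, 2094 and 1894 estimated counts in the 3 libraries and GDF1 had 161, 163 and 178. With honokiol the order was turned around in every library. CERS1 had 535, 414 and 657 estimated counts, and GDF1, which encodes a secreted ligand of the TGF-beta family known for left-right patterning of the embryo, had 1914, 971 and 978. The libraries of the 2 treatments did not overlap for either gene.

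On the FPKM scale, which divides the counts by gene length and library size, CERS1 went from 6.94 ± 0.634 (SD, n = 3) with DMSO to 1.72 ± 0.456 with honokiol in THP-1 cells. GDF1 went from 0.887 ± 0.0635 to 5.90 ± 2.12. The fitted log2 fold changes were -2.07 (SE 0.21) for CERS1 and 2.68 (SE 0.29) for GDF1. Of the 14600 genes tested in THP-1 cells, 6 passed an adjusted p-value of 0.05 and an absolute log2 fold change of 1 in edgeR's quasi-likelihood test, or 0.0411%, and these values are what brought both genes into the set, so nothing is read from that share.

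The total of the locus changed far less than its division. The summed counts of GDF1 and CERS1 were 1894, 2257 and 2072 with DMSO and 2449, 1385 and 1635 with honokiol, and as unscaled counts the 2 treatments overlapped. As CPM (counts scaled to a common library size, here by TMM), the sums were 33.98, 36.47 and 34.18 with DMSO and 32.83, 19.80 and 24.38 with honokiol. On that scale the treatments did not overlap, with honokiol replicate 1 slightly under the lowest DMSO library and replicates 2 and 3 further below. Fitted as 1 gene, the sum had a log2 fold change of -0.44 (SE 0.20). The share of GDF1 in the sum was 8.50%, 7.22% and 8.59% with DMSO and 78.2%, 70.1% and 59.8% with honokiol, a mean of 8.10% ± 0.766 against 69.4% ± 9.19. How the deposited counts were assigned is not given in the sources used here, and fragments over the 8 shared exons match either gene. More GDF1 with less CERS1 and another division of the same fragments therefore cannot be told apart in these values.

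**Figure D2:**
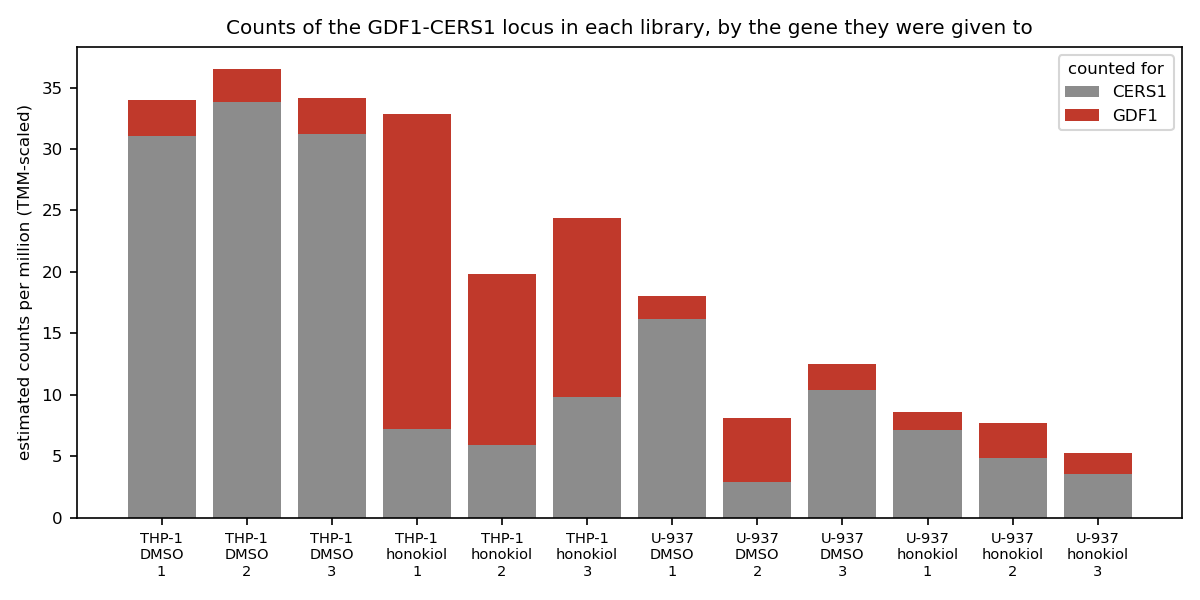
TMM-scaled CPM (from estimated counts) of the locus in each of the 12 libraries, stacked by the gene they were counted for. CERS1 (grey) fills most of the bar in the 3 DMSO libraries of THP-1, and GDF1 (red) in its 3 honokiol libraries, while in U-937 GDF1 does so only for DMSO replicate 2.

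U-937 cells showed no such turn with treatment. GDF1 and CERS1 were chosen on the THP-1 contrast, but with earlier results of these data known. CERS1 had 864, 206 and 696 estimated counts with DMSO and 459, 303 and 219 with honokiol. GDF1 had 103, 365 and 142 with DMSO and 95, 180 and 107 with honokiol. Both genes overlapped between the treatments, and DMSO replicate 2 stood apart from the other DMSO libraries, with the lowest CERS1 and the highest GDF1 of the 6.

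The share of GDF1 in U-937 cells was 10.7%, 63.9% and 16.9% with DMSO and 17.1%, 37.3% and 32.8% with honokiol. DMSO replicate 2, with no honokiol, thus lay within the range of the honokiol-treated THP-1 libraries. The mean share was 30.5% ± 29.1 with DMSO and 29.1% ± 10.6 with honokiol, a difference of -1.43 percentage points with a two-sided exact permutation p of 1.0, where 3 libraries against 3 cannot give less than 0.1. Without DMSO replicate 2 the difference turned to 15.3 percentage points, and without honokiol replicate 1 to 4.54.

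In edgeR's quasi-likelihood test CERS1 had a log2 fold change of -0.91 (95% interval -2.20 to 0.37, adjusted p = 0.451) and GDF1 of -0.59 (95% interval -1.65 to 0.47, adjusted p = 0.559) with honokiol in U-937 cells. Without DMSO replicate 2 these became -1.35 and 0.0087, and without DMSO replicate 1 CERS1 became -0.37. The summed counts were 967, 571 and 838 with DMSO and 554, 483 and 326 with honokiol, each honokiol library below each DMSO library. As TMM-scaled CPM they were 18.05, 8.13 and 12.47 with DMSO and 8.57, 7.69 and 5.28 with honokiol, where DMSO replicate 2 fell below honokiol replicate 1. The sum had a log2 fold change of -0.83 (SE 0.33) that did not pass edgeR's test (adjusted p = 0.264), and leaving out each library moved it between -1.08 and -0.52. Without DMSO replicate 1 it was -0.52.

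The difference between the lines in the response was -3.28 (SE 0.59) on the log2 scale for GDF1, 1.15 (SE 0.66) for CERS1 and -0.40 (SE 0.40) for their sum. These values rest on the THP-1 libraries that chose the genes.

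Only 3 pairs of genes in the table have transcripts with an identical chain of exons. Besides GDF1 with CERS1 they are CCDC103 with FAM187A and DGAT1 with the clone-named gene AC233992. FAM187A had log2 fold changes with honokiol of 0.56 (THP-1) and 0.34 (U-937), and DGAT1 of 0.21 (THP-1) and -0.03 (U-937). CCDC103 and AC233992 did not reach the level needed for the test, so no second pair could be compared.

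The antisense gene AC005197, which overlaps the locus on the opposite strand, held at most 21 estimated counts in any library.

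Serine palmitoyltransferase makes the first committed step of the pathway, with SPTLC1 and SPTLC2 as its core subunits. SPTLC1 stood at 6.55, 6.04 and 6.85 FPKM in DMSO-treated THP-1 cells and at 6.24, 6.99 and 6.58 with honokiol. The U-937 libraries were at 5.43, 7.02 and 5.17 with DMSO and at 6.81, 7.04 and 7.95 with honokiol. No group stood apart from another.

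SPTLC2 stood at 5.20, 7.36 and 7.77 FPKM in DMSO-treated THP-1 cells and at 7.51, 6.73 and 6.71 with honokiol. In U-937 cells the values were 13.56, 20.09 and 16.94 with DMSO and 18.11, 18.49 and 23.52 with honokiol. Every U-937 library was above every THP-1 library, and within each line the treatments overlapped. For SPTLC2 and the genes below, the share of all genes that separate the lines in this way was not computed.

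CERS2, which makes very long-chain ceramides and is the most widely expressed synthase in human tissues, stood at 39.57, 40.98 and 40.23 FPKM in DMSO-treated THP-1 cells and at 41.45, 40.11 and 21.84 with honokiol. In U-937 cells it stood at 38.26, 47.24 and 42.05 with DMSO and at 19.22, 39.40 and 42.17 with honokiol. Only 2 libraries departed from a narrow band, the honokiol replicate 3 library in THP-1 and the honokiol replicate 1 library in U-937, and other libraries of the same groups lay within that band. SETDB1, a gene on the opposite strand, overlaps CERS2 by 4162 bases and held 3308 to 7501 estimated counts, and without strand the reads of the overlap cannot be told apart. The log2 fold change of CERS2 with honokiol was -0.28 for THP-1 and -0.43 for U-937. Without those libraries it was -0.03 and -0.15.

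CERS6, which prefers palmitoyl-CoA, stood at 36.72, 25.37 and 29.65 FPKM in DMSO-treated THP-1 cells and at 24.69, 31.14 and 28.34 with honokiol. Its level in U-937 cells was 13.16, 14.86 and 15.71 with DMSO and 18.00, 14.65 and 14.96 with honokiol. Every THP-1 library exceeded every U-937 library. The antisense gene CERS6-AS1 covers 3184 bases of the locus and held at most 108 estimated counts.

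CERS5, the other synthase that prefers palmitoyl-CoA, stood at 4.27, 5.22 and 6.31 FPKM in DMSO-treated THP-1 cells and at 4.57, 4.15 and 3.75 with honokiol. U-937 cells had 2.0, 2.65 and 2.38 with DMSO and 3.0, 2.66 and 2.11 with honokiol. The THP-1 libraries again all lay above the U-937 libraries. The long antisense gene AC074032 covers 36330 bases of the CERS5 locus and held 9 to 78 estimated counts.

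CERS4, which makes long-chain ceramides, stood at 4.49, 5.15 and 4.97 FPKM in DMSO-treated THP-1 cells and at 4.73, 4.90 and 4.42 with honokiol. U-937 cells had 3.18, 2.06 and 2.84 with DMSO and 2.38, 2.41 and 3.10 with honokiol. The lines did not overlap, and the treatments did.

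DEGS1, the desaturase that introduces the double bond of ceramide, was among the most abundant members and varied between the libraries of each group. It stood at 49.58, 47.96 and 29.53 FPKM in DMSO-treated THP-1 cells and at 29.42, 58.91 and 56.55 with honokiol. In U-937 cells it stood at 31.33, 42.89 and 29.33 with DMSO and at 28.76, 42.06 and 28.22 with honokiol. Each group held libraries near 29 FPKM and at least 1 library above 42.

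UGCG, which turns ceramide into glucosylceramide, stood at 2.74, 3.35 and 3.05 FPKM in DMSO-treated THP-1 cells and at 2.95, 2.24 and 2.09 with honokiol. Its level in U-937 cells was 1.2, 2.31 and 2.45 with DMSO and 2.03, 1.94 and 2.14 with honokiol. DMSO replicate 1 of U-937 was the lowest of the 12 libraries.

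**Figure D3:**
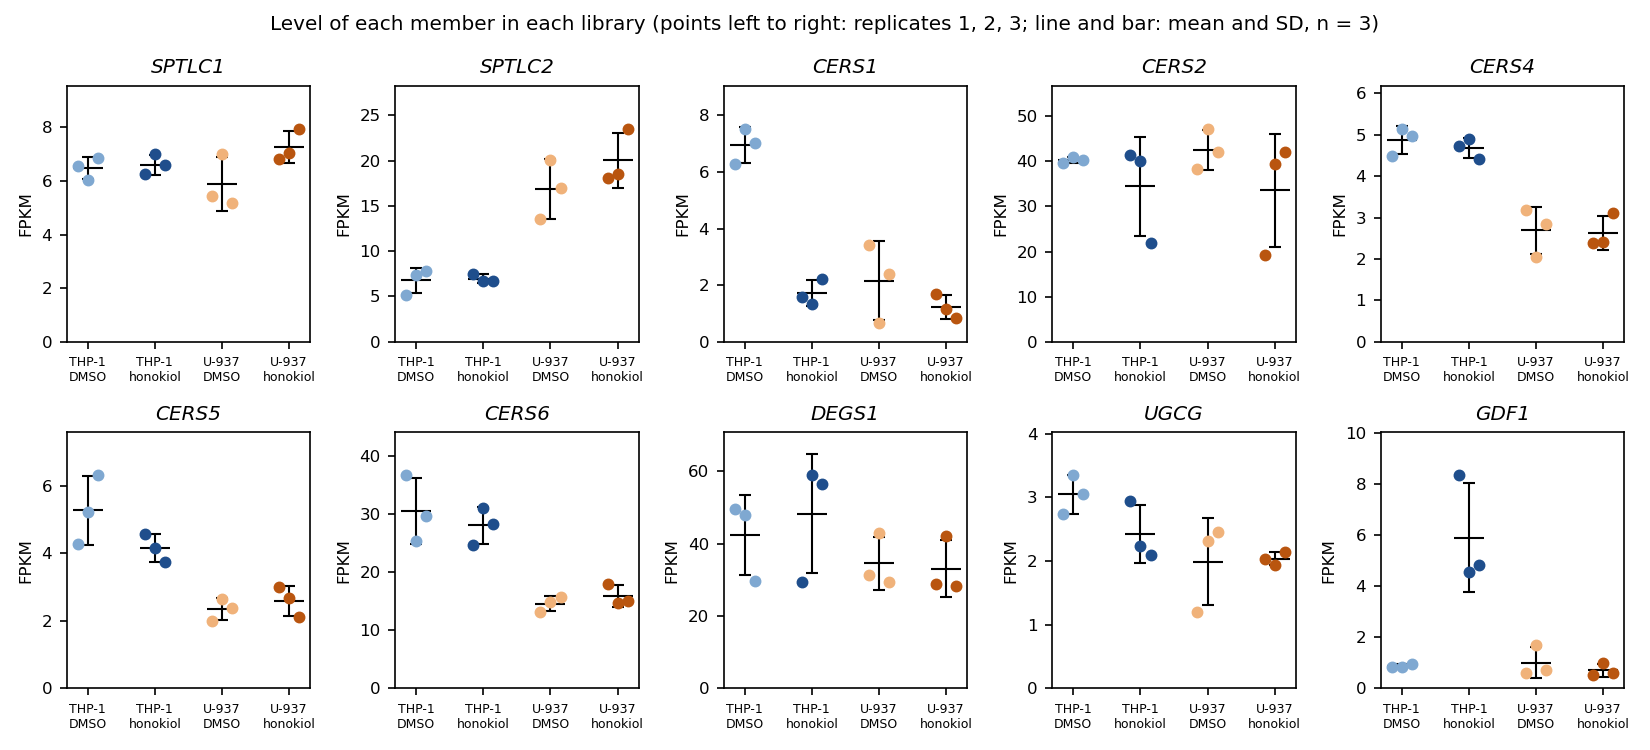
FPKM of each of the 10 members in each library, 1 panel a gene and 3 points a group, with the mean and the SD (n = 3). The honokiol and DMSO points overlap within each line for all panels but CERS1 and GDF1 in THP-1, and SPTLC2, CERS4, CERS5 and CERS6 separate the lines. The share of all genes that separate the lines was not computed, so nothing is read from that separation.

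In DMSO-treated THP-1 cells the members ranked, from the highest mean FPKM, as DEGS1, CERS2, CERS6, CERS1, SPTLC2, SPTLC1, CERS5, CERS4, UGCG and GDF1. In DMSO-treated U-937 cells CERS2 and DEGS1 led, followed by SPTLC2 and CERS6. Of the 36 neighbours in the order of the 4 groups, 22 had overlapping libraries. In THP-1 with DMSO, DEGS1 and CERS2 overlapped, while CERS2 lay above CERS6 and CERS6 above CERS1 without overlap.

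No member chosen by role was called between honokiol and DMSO. In THP-1 cells edgeR's quasi-likelihood test called 0 of the 8, where it called 0.0411% of all genes. DESeq2 and limma-trend called 0 of the 8 too. CERS5 was the 1 of the 8 with an unadjusted edgeR p-value under 0.05, a count that has no share of all genes beside it. Its log2 fold change was -0.39 (SE 0.16, adjusted p = 0.368 by edgeR). The other 7 had log2 fold changes from -0.38 for UGCG to 0.12 for DEGS1, and the 95% intervals of the 8 lay between -0.83 and 0.83, so that changes larger than 1.78-fold were outside all of them. In 0 of the 8 the libraries of the treatments were apart, against 20.6% of all genes tested.

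In U-937 cells edgeR called 0 of the 10 members, where 13 of 13726 genes were called, or 0.0947%. DESeq2 and limma-trend called 0 of them too, and 0 of the 10 had an unadjusted p-value under 0.05. The 8 members chosen by role had log2 fold changes from -0.43 for CERS2 to 0.22 for SPTLC1, with 95% intervals between -1.05 and 0.59. Libraries of the treatments were apart in 0 of the 10 on the FPKM scale, against 24.2% of all genes tested. The response of the lines to honokiol was not called different for any of the 8 (edgeR, 0 with an unadjusted p-value under 0.05, 0 by DESeq2 and 0 by limma-trend), where 0.111% of 16283 genes were called. Here the differences ran from -0.29 for DEGS1 to 0.43 for CERS5, with 95% intervals between -1.19 and 1.06.

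**Figure D4:**
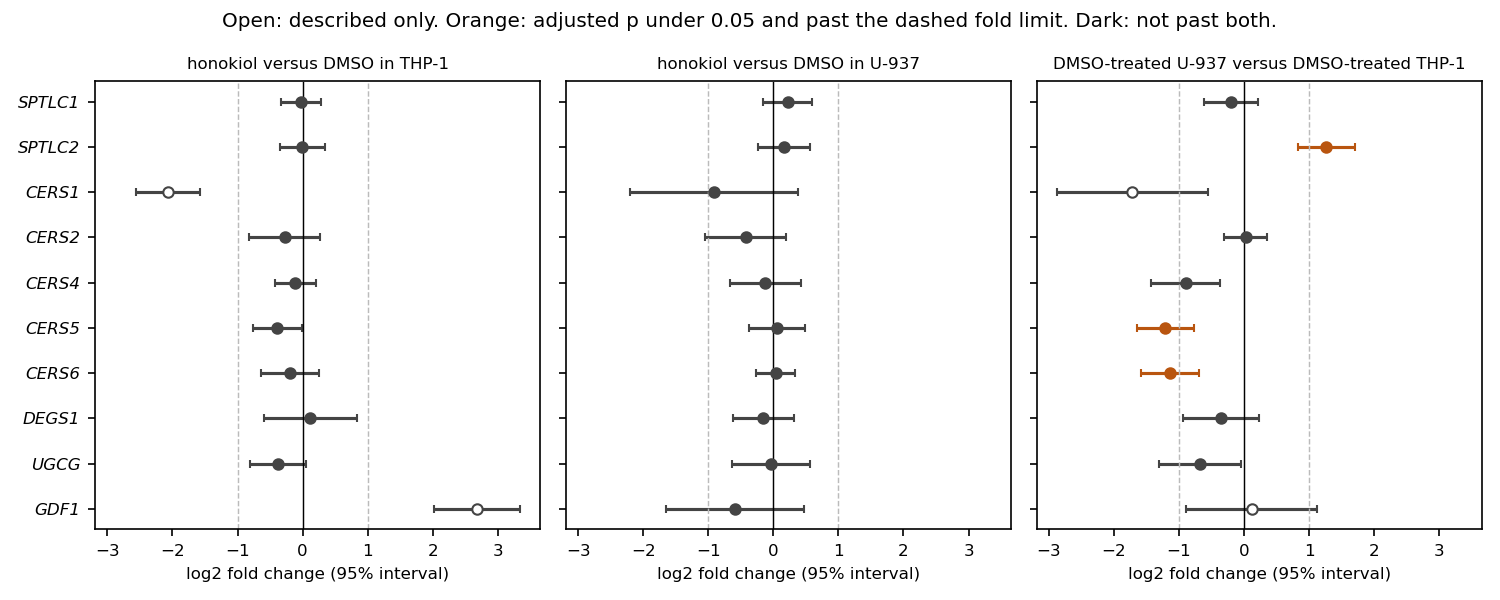
Log2 fold change and 95% interval of each member in 3 comparisons, with dashed lines at the fold limit. Open points are described only. The filled points of both honokiol panels lie within the dashed lines, and in the panel between the lines SPTLC2 lies to the right and CERS5 and CERS6 to the left of the limits.

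The lines themselves differed in the members without honokiol. SPTLC2 was 2.40-fold higher in DMSO-treated U-937 than in DMSO-treated THP-1 cells, and CERS5 and CERS6 were 2.32-fold and 2.20-fold lower. The log2 fold changes were 1.27 (SE 0.19, adjusted p = 0.000823) for SPTLC2, -1.21 (SE 0.19, adjusted p = 0.00106) for CERS5 and -1.14 (SE 0.20, adjusted p = 0.00162) for CERS6 in edgeR's quasi-likelihood test. These 3 of 8 members were called where 32.4% of all 14617 genes tested were, so nothing is read from the share of the members. CERS4 had a log2 fold change of -0.90 (adjusted p = 0.0123), under the fold limit, and UGCG of -0.68 (adjusted p = 0.0727). SPTLC1, DEGS1 and CERS2 lay between -0.36 and 0.02, with adjusted p-values from 0.279 to 0.913.

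DMSO replicate 1 of each line held more counts of mitochondrially encoded genes (13.7% for THP-1, 12.6% for U-937) than the other libraries (5.61% to 7.55%), and the part of this in the results was not tested beyond leaving these libraries out. Without THP-1 DMSO replicate 1, CERS6 had a log2 fold change of -0.997 and fell just under the fold limit. Without U-937 DMSO replicate 1, CERS4 had -1.03 and passed it, and UGCG had -0.39. SPTLC2 was called in all 16 alternatives and CERS5 in 15 of 16, the exception being limma-trend on log2(FPKM + 1), with -0.90.

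The locus was lower in U-937 cells as well. Summed, GDF1 and CERS1 had a log2 fold change of -1.44 (SE 0.29) between the DMSO-treated lines, with TMM-scaled CPM of 33.98, 36.47 and 34.18 in THP-1 against 18.05, 8.13 and 12.47 in U-937. CERS1 had -1.72 (SE 0.51) and GDF1 0.12 (SE 0.44). Without U-937 DMSO replicate 2 the values were -1.15 for the sum, -1.23 for CERS1 and -0.44 for GDF1. These are described only, since the THP-1 DMSO libraries took part in choosing both genes.

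The rest of the pathway was described by lists of 56 genes, of which 53 are in the table. Of the 36 list genes tested in THP-1 cells edgeR called 0 with honokiol (7 with an unadjusted p-value under 0.05, 0 called by DESeq2 and by limma-trend), where 0.0411% of all genes were called. Of the 34 tested in U-937 cells it called 0 (6 under 0.05, 1 called by DESeq2, 0 by limma-trend), where edgeR called 0.0947% of all genes. DESeq2 called 1.73% of the genes it tested there, so nothing is read from its 1 call. On the log2 scale the medians of the 5 lists lay between -0.23 and 0.12 in THP-1 cells, beside -0.0011 for all genes tested. In U-937 cells they lay between -0.33 and 0.25, beside 0.016.

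ASAH1, the acid ceramidase, had the smallest p-value of the list genes in U-937 cells. Its level was 7.84 ± 1.05 FPKM with DMSO and 17.6 ± 5.44 with honokiol (n = 3), a log2 fold change of 1.08 (SE 0.23, adjusted p = 0.0989 by edgeR). The treatments did not overlap, as for 24.2% of all genes tested. DESeq2 and the fit of all 12 libraries called ASAH1, with 1.07 in each, where they called 1.73% and 0.663% of all genes tested. Over its 16 alternatives the adjusted p ran from 0.00139 to 0.298. In THP-1 cells ASAH1 stood at 2.52 ± 0.231 and 3.68 ± 0.433 FPKM, a log2 fold change of 0.48 (adjusted p = 0.293 by edgeR). There the treatments did not overlap either, as for 20.6% of all genes tested. The response of ASAH1 differed between the lines by 0.59 (adjusted p = 0.572 by edgeR).

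HOMER3, a neighbour of the locus on chromosome 19, was next in that line, at -0.42 on the log2 scale (adjusted p = 0.163 by edgeR). PSAP, the precursor of the saposins that help lysosomal sphingolipid hydrolases, came after it with 0.76 (adjusted p = 0.185 by edgeR). The treatments did not overlap for PSAP, as for 24.2% of all genes tested.

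In THP-1 cells the smallest p-values were those of ACVR2B, an activin receptor of the family through which GDF1 signals, with 0.57 (adjusted p = 0.176), and of CERK, the ceramide kinase, with -0.44 (adjusted p = 0.285). Their libraries did not overlap between the treatments, as for 20.6% of all genes tested, and neither passed the test. For the difference between the lines in the response, 0 of 38 list genes were called by edgeR (0 with an unadjusted p-value under 0.05, 0 called by DESeq2 and by limma-trend), beside 0.111% of all genes. Among the smallest p-values were those of GALC (0.47, adjusted p = 0.540) and ASAH1.

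Between the DMSO-treated lines 15 of 37 list genes were called, 7 higher and 8 lower in U-937, against 32.4% of all genes. Of the called genes, SGMS1, UGT8, B4GALT6, ACER2 and SGPP1 reached the filter only through the line where they were higher. A large difference was thus close to given for them, so they are described only and nothing is read from the count. Among the other genes of de novo synthesis 1 of 5 tested was called. This was ORMDL2, a regulator of serine palmitoyltransferase, at 3.01 ± 0.590 FPKM in U-937 against 6.16 ± 1.52 in THP-1 cells (log2 fold change -1.08). SPTLC3, SPTSSB, DEGS2 and CERS3, the synthase of skin, stayed under the level needed for the test.

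Of the genes that use ceramide 4 of 9 tested were called, beside 32.4% of all genes. Of these 4 only CERK passed the filter in both lines, so nothing is read from the count. SGMS1, a sphingomyelin synthase, was higher in U-937 (1.04 ± 0.275 against 0.343 ± 0.0971 FPKM, log2 fold change 1.55). CERK was lower (8.33 ± 1.32 against 22.9 ± 1.31, log2 fold change -1.51), as was UGT8, which makes galactosylceramide (0.197 ± 0.0896 against 3.57 ± 0.619, log2 fold change -4.21). B4GALT6, a lactosylceramide synthase, had 4, 4 and 0 estimated counts in DMSO-treated U-937 cells and 765, 845 and 571 in THP-1 cells. A fragment was mostly worth 4 counts, so B4GALT6 was at the detection limit in U-937 and no fold is given.

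Of the genes of ceramide release and breakdown 8 of 14 tested were called, beside 32.4% of all genes. Of these 8, ACER2 and SGPP1 passed the filter in THP-1 alone, so nothing is read from the count. ASAH1 was higher in U-937 (log2 fold change 1.57, adjusted p = 0.000138), as were SMPD1, the acid sphingomyelinase (1.07), and the sphingosine kinases SPHK1 (1.11) and SPHK2 (1.08). PSAP was lower (84.7 ± 21.4 against 281 ± 78.7 FPKM, log2 fold change -1.78), as were GALC, the galactosylceramidase (-2.23), and ACER2, an alkaline ceramidase (-2.30). SGPP1, a sphingosine-1-phosphate phosphatase, had 19, 6 and 4 estimated counts in U-937 and 379, 289 and 408 in THP-1 cells with DMSO. The list thus held members called in both directions. Its median was -0.58 beside -0.04 for all genes tested. ACER2 and SGPP1 are part of that median, so nothing is read from it.

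Several of these calls lay near the fold limit of 1. Without U-937 DMSO replicate 1 or 2, ORMDL2 fell under it, with -0.94 and -0.99. SMPD1 did so without THP-1 DMSO replicate 1 or 2 (0.98 and 0.86), and SPHK2 (0.96) and HOMER3 (0.94) without THP-1 DMSO replicate 1. SPHK1 lost its call without THP-1 DMSO replicate 1 (0.73) or 2 (1.16) and without U-937 DMSO replicate 2 (1.04) or 3 (1.08). With limma-trend on log2(FPKM + 1), 9 of the 37 list genes were called, where this setting called 21.1% of all genes. Among those that lost their call there were SGMS1 (0.60) and ACER2 (-0.83). SGMS1 was not called by limma-trend on log2(FPKM + 0.5) either (0.86).

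**Figure D5:**
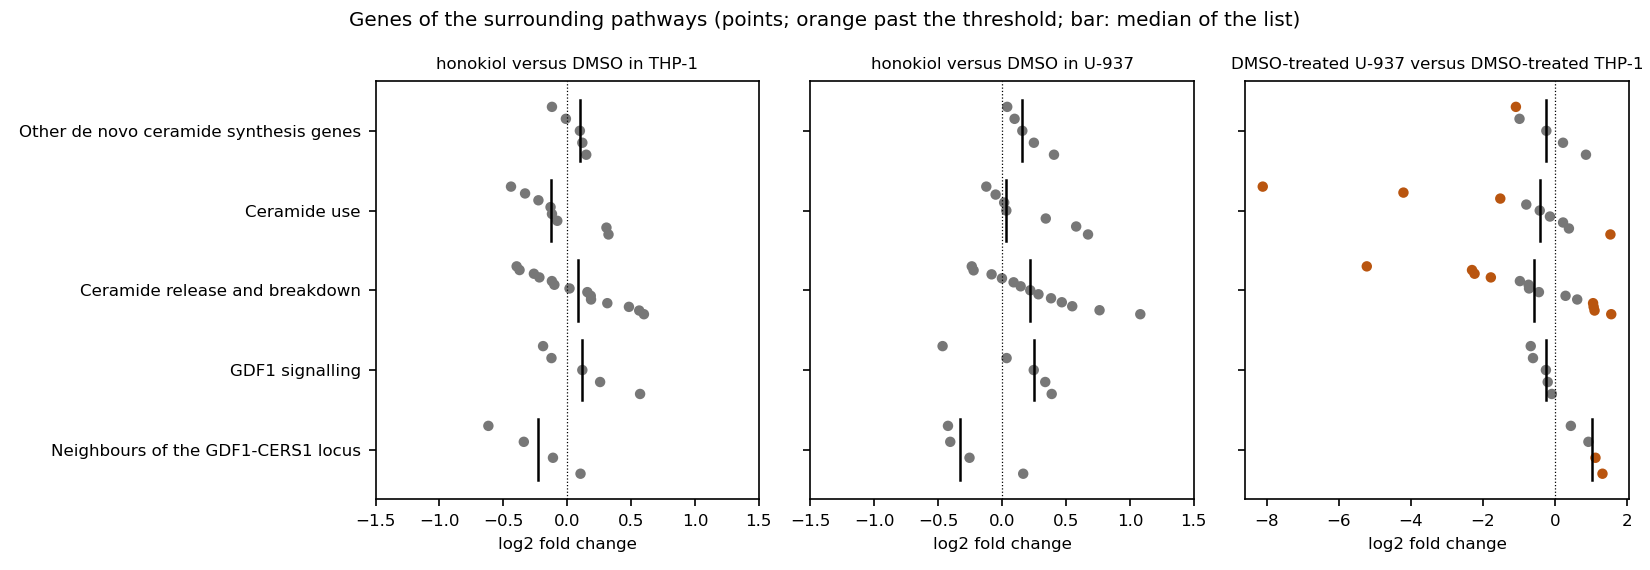
Log2 fold change of each tested gene of the 5 lists in the 3 comparisons, with a bar at the median of each list and orange points for called genes. The horizontal axis runs from -1.5 to 1.5 in the honokiol panels, which hold no orange point, and is wider in the panel between the lines, which holds 15.

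Of the GDF1 signalling genes 0 of the 5 tested were called between the lines by edgeR (2 with an unadjusted p-value under 0.05, 0 called by DESeq2 and by limma-trend). The other 7 of the 12 listed in the table did not reach the level needed for the test, among them the ligand NODAL and the co-receptor CRIPTO. Of the neighbours of the locus 2 of 4 tested were called. As edgeR called 32.4% of all genes between the lines, nothing is read from either count. The called neighbours were DDX49, an RNA helicase gene, higher in U-937 (22.3 ± 2.31 against 8.54 ± 0.792 FPKM, log2 fold change 1.33), and HOMER3, also higher (70.2 ± 1.72 against 31.0 ± 8.05, log2 fold change 1.13). The summed locus was lower in U-937.

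Over the 12 libraries, CERS1 and GDF1 had a Pearson r of -0.27 with each other on the log2(FPKM + 0.5) scale. The genes most like CERS1 among 14553 were PHLPP1 (r = 0.93), ADGRB1 (r = 0.92) and MKNK1 (r = 0.91), and those most like GDF1 were FAF1 (r = 0.90), MGARP (r = 0.89) and PDK4 (r = 0.89). The 12 points fall into 4 groups and share their libraries, so these values describe likeness of pattern only.

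The libraries held the marks of myeloid cells, with PTPRC at 15.5 to 27.2 FPKM and SPI1 and CEBPA above 53 FPKM in each. Of the myeloid markers MPO reached as low as 0.06 and CD14 as low as 0.17 in some libraries. Among markers of other cell types, CD3E, ALAS2, EPCAM, ALB and RBFOX3 stayed at or under 0.27 FPKM, while KRT8 reached 1.12. The estimated counts summed to 57406966 to 75065752 a library, and replicates correlated at r of 0.970 to 0.986. Nothing in the labels says that replicates came from separate cultures, so p-values measure the spread between these libraries only. In bulk RNA, fewer cells with a transcript and less of it per cell cannot be told apart.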

How the data were processed

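Per the labels, poly(A) RNA was sequenced in 12 libraries. The authors deposited, for each of 36866 genes, an FPKM value and an estimated count in every library. The estimated counts deposited are whole numbers, not normalized, and the deposited FPKM equal the count divided by 1 fixed length per gene and by the library sum (median coefficient of variation 0.458% over 7247 genes). The length behind CERS1 is 1.45 times that of GDF1. The submitters' processing notes name Bowtie 0.12.2, HISAT2 2.0, StringTie 1.3.0 and the mouse build mm8, while most coordinates in the table match human GRCh38. By identifier 35762 genes were found in GENCODE 29, and 31423 of these had the same start or end there. Strandedness is not given in the sources used here, nor is which tool made the values. Among low values 4 was frequent (17264 values) against 3 (6764) and 5 (4016), so a fragment is mostly worth 4 counts and the counts overstate the precision. The labels and the methods differ on the instrument and the RNA amount, and the series text describes a microarray.

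The estimated counts were tested with edgeR 4.0.16 (quasi-likelihood test, TMM, R 4.3.3) on genes that reached an FPKM of 0.5 in 3 or more of the libraries compared, with Benjamini-Hochberg adjustment over all genes tested and no term for the replicate. A called gene passed an adjusted p of 0.05 and moved by more than 1 on the log2 scale, following the study's methods, and the difference between the lines needed the adjusted p only. Intervals are 95% intervals from the fit. DESeq2 1.42.0, limma 3.58.1 on log2(FPKM + 0.5) and log2(FPKM + 1), other filters, RLE size factors, counts divided by 4, GDF1 and CERS1 summed, a replicate block, a joint fit of the 12 libraries and each library left out were alternatives. Leaving out libraries from the summed locus was added after seeing the data. The share of GDF1 was compared by an exact permutation test in U-937.

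The members and lists were chosen with earlier results of these data known. Named were all members and, of 5 lists (other de novo synthesis, ceramide use, ceramide release and breakdown, GDF1 signalling, neighbours of the locus), the called genes or, where fewer than 3 were called, the 3 with the smallest p-values, plus the 3 genes most correlated with CERS1 and with GDF1. List genes under the filter, overlapping genes and the pairs with identical exons were named after their values were seen. Sequences came from GENCODE 29 transcripts and RefSeq. Some single genes that these rules name are not reported here.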

Additional observations from a re-analysis of the deposited data

How the results depend on the processing

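Of 10 members 2, GDF1 and CERS1, passed the threshold in THP-1 with honokiol, and this count was 0 with limma-trend at either pseudocount, with no filter on FPKM, with an FPKM of at least 1, with GDF1 and CERS1 summed and with a replicate block, 1 with all 12 libraries in one fit, and 0 to 2 with each library left out (2 without honokiol replicate 1 and 0 without any of the other 5). These genes were chosen on that contrast, so the counts describe the fits and nothing is read from them. Both genes kept their direction in every alternative, between 1.83 and 2.84 for GDF1 and between -2.28 and -1.56 for CERS1. With DESeq2 the count for the difference between the lines went from 0 to 1 (GDF1, described only, since the same THP-1 libraries chose it). Over all genes, the calls ran from 0 to 250 in THP-1 (6 in the fit reported), 0 to 223 in U-937 (13), 0 to 240 for the difference (18) and 3084 to 6704 between the DMSO-treated lines (4730), the highest with DESeq2 in the first 3 and with no filter in the last. The cause was not tested. Same-numbered libraries correlated between -0.155 and 0.113 in their deviations, with no comparison of libraries of different numbers. The replicate block called 0 genes in THP-1 and U-937. Whether the numbers mark pairs or a batch was not tested further.

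The difference in the share of GDF1 in U-937 was 0.320 percentage points as a share of FPKM and -11.4 to 15.3 with each library left out. Signs also turned for values near 0 that were not called. In THP-1 with honokiol, limma-trend gave 0.026 and 0.024 for SPTLC1 and 0.058 and 0.053 for SPTLC2 (pseudocounts 0.5 and 1), and for SPTLC2 an FPKM of at least 1 gave 0.0069, counts divided by 4 gave 0.0006 and the replicate block 0.0070. Leaving out each library gave -0.33 to 0.019 for CERS6, -0.099 to 0.027 for SPTLC1, -0.12 to 0.082 for SPTLC2 and -0.10 to 0.38 for DEGS1. In U-937 with honokiol, UGCG was 0.070 and 0.052 with limma-trend and 0.015 with the replicate block. Leaving out each library gave -0.92 to 0.0087 for GDF1, -0.30 to 0.045 for CERS4, -0.065 to 0.18 for CERS5, -0.063 to 0.11 for CERS6, -0.35 to 0.013 for DEGS1 and -0.28 to 0.11 for UGCG. For the difference between the lines, CERS4 was 0.030 and 0.027 with limma-trend and -0.19 to 0.16 with each library left out, and CERS2 -0.41 to 0.12. Between the DMSO-treated lines, GDF1 was -0.040 with the replicate block and -0.44 to 0.41 with each library left out, and CERS2 -0.068 to 0.11. Over all single-gene values, 988 alternatives kept direction and call, 45 lost a call, 4 gained one and 43 changed sign.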
